A study of Mus musculus with 90 samples.

Results

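The genes described here are 10 members of the Notch system: the ligand genes Dll1, Dll3, Dll4, Jag1 and Jag2, the Notch-binding protein gene Dner, the receptor genes Notch1 and Notch2, and the target genes Hes1 and Hes5. They were taken by symbol from the count tables and are 10 of 24984 genes listed in the table of the neural series and of 24961 in that of the embryoid body series. Notch receptors are cut when a ligand on a neighbouring cell binds them, and the released part joins the DNA-binding protein RBPJ to switch on target genes. Among these targets are Hes1 and Hes5, whose products repress proneural genes. In developing neural tissue, cells that raise proneural factors and Delta-type ligands become neurons while their neighbours, with active Notch and Hes5, stay progenitors. Outside the nervous system Dll4 and Jag1 are known for their roles in blood vessels and heart, and Dll1 and Dll3 for segmentation of the paraxial mesoderm.

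The RNA-seq libraries came from J1 mouse embryonic stem cells carrying different versions of CBX7, a chromodomain subunit of the Polycomb repressive complex PRC1. In the CaPS line CBX7 carries the compaction and phase separation domain known from CBX2, and in mCaPS a mutated form of that domain. The others were a line labelled CBX7-CaPS-R, whose R the labels do not spell out, a line labelled CBX7 KO, and WT. Stem cells of every line were kept on embryonic fibroblast feeders with LIF and taken off the feeders before differentiation. In the neural series, aggregates formed for 4 days without LIF, then received 5 uM retinoic acid, and were sampled on days 0, 6 and 8. In the embryoid body series, hanging drops were kept for 4 days, then moved to suspension, and were sampled on days 0, 6 and 10. With 5 lines, 3 days and 3 libraries for each line and day, there were 45 libraries in each series and 90 in all. The labels do not say whether the 3 libraries of a group came from separate cultures, so the p-values measure the spread between libraries, which may be technical. The number of clones behind a line is not given.

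Libraries of the 4 lines other than CaPS-R held 11830340 to 59295504 counts in the neural series and 10601858 to 55886291 counts in the embryoid body series. Those of CaPS-R held 11700345 to 29053288 counts in the neural series and 11043361 to 109979089 in embryoid bodies. In the embryoid body series 6 libraries, those of CaPS and WT numbered 1 on each day, stood apart. Of their counts between 1 and 20, 42.1 to 43.5% were even numbers, against 73.5 to 94.1% in the other embryoid body libraries. Levels are given as CPM, counts scaled to a common library size. Gapdh, a glycolytic enzyme gene, stood at 5.10 to 13.2 CPM outside the ribosomal precursor Rn45s in those 6 libraries. It stood at 18.6 to 41.2 CPM in mCaPS and KO libraries and at 79.7 to 623 CPM in the other CaPS and WT libraries. Rn45s took 88.7% of the counts of the mCaPS embryoid body library numbered 3 on day 0. Reads of Cbx7 itself were counted in all 9 KO libraries of the neural series, at 14.7 to 137 CPM, against 17.3 to 191 CPM in WT. In the embryoid body series they were counted in all 9 as well, at 19.97 to 122 CPM in KO, against 7.56 to 132 CPM in WT. A count over the whole gene does not check that label, since the deleted part is not given. The pluripotency and neural markers followed the labels in WT: on neural day 8 all 8 pluripotency markers were lower than on day 0, while 7 of 8 proneural, 6 of 8 neuronal and 5 of 8 neural progenitor markers were higher. Of all genes tested, 27.5% were called higher and 24.9% lower there.

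The promoter of Hes5 is shown because Hes5 is a classic target that Notch switches on through RBPJ. It is the 250 bases before the RefSeq start site on chromosome 4 of build GRCm38.p6, the build of the files (mm10), and the capitals mark GTGGGAA or its reverse complement TTCCCAC, the core that RBPJ binds. The promoters of Dll1 and Dll3, ligands chosen with their values known, are shown with E-boxes, written CANNTG, in capitals, since proneural proteins bind such sequences. All are RefSeq sequences, printed 5′ to 3′ on the gene's strand, and Dll1 has a pair of RefSeq starts.
Hes5 chr4:154960673-154960922, plus strand: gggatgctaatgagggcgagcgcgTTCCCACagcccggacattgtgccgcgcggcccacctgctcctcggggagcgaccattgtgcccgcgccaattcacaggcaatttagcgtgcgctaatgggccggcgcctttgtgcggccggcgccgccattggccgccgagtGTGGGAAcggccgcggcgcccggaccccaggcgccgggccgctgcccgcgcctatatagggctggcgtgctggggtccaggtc
Dll1 chr17:15375824-15376073, minus strand: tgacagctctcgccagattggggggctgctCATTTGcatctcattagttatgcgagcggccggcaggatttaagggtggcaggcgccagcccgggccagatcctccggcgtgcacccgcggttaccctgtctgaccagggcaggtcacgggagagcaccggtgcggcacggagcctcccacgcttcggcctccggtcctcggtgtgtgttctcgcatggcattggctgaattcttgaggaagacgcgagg
Dll1 chr17:15376933-15377182, minus strand: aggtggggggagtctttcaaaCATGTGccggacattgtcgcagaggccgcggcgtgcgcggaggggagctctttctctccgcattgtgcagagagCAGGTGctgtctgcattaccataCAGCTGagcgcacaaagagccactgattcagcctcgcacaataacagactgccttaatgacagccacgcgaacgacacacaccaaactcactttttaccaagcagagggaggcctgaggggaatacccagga
Dll3 chr7:28301786-28302035, minus strand: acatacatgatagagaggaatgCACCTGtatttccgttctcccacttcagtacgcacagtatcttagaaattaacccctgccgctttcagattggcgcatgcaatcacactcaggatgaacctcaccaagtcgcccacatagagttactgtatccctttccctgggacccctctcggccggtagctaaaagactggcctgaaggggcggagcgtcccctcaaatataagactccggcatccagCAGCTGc
A promoter entry was matched for 9 of the 10 members, those other than Hes1. The letters GTGGGAA or TTCCCAC were in 5.42% of all 32851 promoter windows of this length and, among the members, in Hes5, which held the core at positions -226 to -220 and again at -83 to -77 before its start. The shorter core TGGGAA or TTCCCA, which lies inside the longer one, was in 21.6% of windows and also in Hes5 among the members. E-boxes were in 66.2% of windows, with 1 and 3 in the entries of Dll1, 2 in Dll3 and 1 each in Jag1 and Hes5. The N-box CACNAG or CTNGTG, which HES proteins bind, was in 36.7% of windows and in those of Dll4, Dner, Notch1 and Notch2. A match is a run of letters and not a measured binding site.

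In WT cells of the neural series, the Delta-type ligands, Dner, Notch1 and the Hes genes rose between day 0 and day 8, while Jag1, Jag2 and Notch2 did not pass the test. In edgeR's quasi-likelihood test, a gene is called here when its p, adjusted over all genes tested by the Benjamini-Hochberg method, is below 0.05. Of the 10 members 7 were called on day 8 against day 0, all higher, where 52.4% of all genes tested were called, 27.5% higher and 24.9% lower. Hes5, a basic helix-loop-helix repressor of neural progenitors, was at 88.1, 85.2 and 103 CPM on day 8, against 2.21, 0.104 and 0.870 CPM on day 0, a log2 fold change of 6.50 ± 1.19 (SE, adjusted p = 4.9e-05). The day 8 libraries lay close together and all day 0 libraries lay far below them. Dll1, the main Notch ligand of nascent neurons, was at 152, 163 and 103 CPM on day 8, against 9.14, 5.70 and 6.05 CPM on day 0 (4.33 ± 0.75, adjusted p = 2.6e-05). Dll3, a ligand that acts within the cell that makes it, was at 34.2, 63.0 and 35.6 CPM on day 8, against 5.44, 5.72 and 6.56 CPM on day 0 (2.90 ± 0.68, adjusted p = 0.00083). Dner, a transmembrane protein of neurons that binds Notch, was at 63.1, 43.6 and 35.1 CPM on day 8, against 3.15, 0.416 and 0.870 CPM on day 0 (5.03 ± 1.07, adjusted p = 0.00028). For each of these genes the days did not overlap.

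Notch1, the receptor, was at 441, 313 and 325 CPM on day 8, against 92.2, 68.9 and 68.7 CPM on day 0 (log2 2.23 ± 0.45, adjusted p = 0.00017). Notch2 took another course: its mean was 124 ± 14 CPM on day 0, 262 ± 24 on day 6 and 153 ± 27 on day 8 (SD, n = 3 each). It was higher on day 6 than on day 0 (log2 1.09 ± 0.19, adjusted p = 4.5e-05) and lower on day 8 than on day 6 (-0.77 ± 0.18, adjusted p = 0.011). Hes1, the more broadly expressed repressor, had a narrow range, at 39.5, 38.9 and 42.9 CPM on day 8, against 31.0, 22.8 and 25.2 CPM on day 0 (0.62 ± 0.23, adjusted p = 0.028). Dll4, the ligand known best from vessels, was at 3.95, 13.9 and 5.48 CPM on day 8. Its day 0 libraries held 4, 3 and 0 counts, so the fitted change of 6.56 ± 0.86 rests on very low day 0 counts. Jag1 averaged 50.2 ± 6.6 CPM on day 8 and 44.3 ± 7.5 CPM on day 0 (log2 0.18 ± 0.37). Jag2 averaged 35.6 ± 18.5 CPM on day 8 and 46.8 ± 19.8 CPM on day 0 (log2 -0.40 ± 0.39). These Jagged ligands overlapped between the days.

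**Figure D1:**
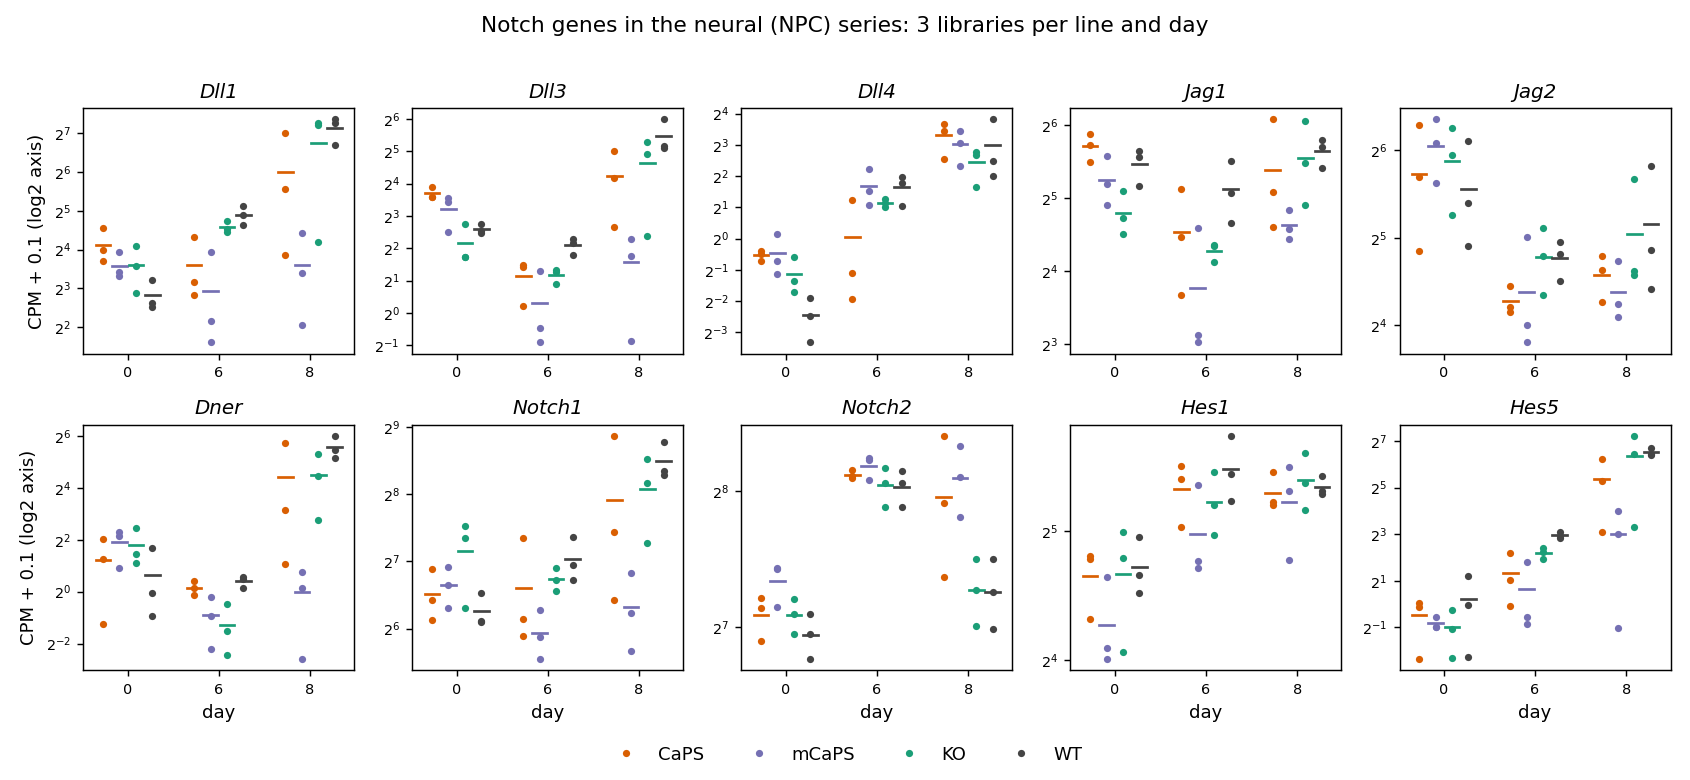
Level of each member in the neural series, as CPM plus 0.1 on a log2 axis (y), by day (x) and line (colour); each point is 1 of 3 libraries and each bar their arithmetic mean. On day 8 all mCaPS libraries of Dll1, Dll3, Jag1, Dner, Notch1 and Hes5 lie below all WT libraries. All CaPS libraries of Dll3 and Hes5 do so too. CaPS libraries of the other genes named here, and KO libraries of all of them, overlap those of WT.

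The rise came in steps that differed by gene. By day 6, after retinoic acid had been added, 5 of 10 members were called, all higher (background 37.3%): Dll4 by 5.21 ± 0.84, Hes5 by 2.90 ± 1.05, Dll1 by 2.09 ± 0.69, Notch2 by 1.09 ± 0.19 and Hes1 by 0.76 ± 0.23 on the log2 scale. Dll3 and Dner were at 3.37 to 4.77 CPM and at 1.02 to 1.36 CPM on day 6 and were not called then. On day 8 against day 6, 6 of 10 were called where 7.34% of all genes were: Dner by 5.26 ± 1.07, Hes5 by 3.59 ± 1.01, Dll3 by 3.41 ± 0.70, Dll1 by 2.23 ± 0.68 and Notch1 by 1.45 ± 0.44 higher, and Notch2 lower. Several of these step calls were not kept when 1 library was left out. All day 8 against day 0 calls but that of Hes1 were kept whichever library was left out. For day 6 against day 0, Dll1 lost its call without either WT day 0 library numbered 2 or 3 (log2 1.97 to 2.01, adjusted p = 0.056 to 0.063). Hes1 lost it without WT day 0 number 2 or day 6 number 1 (0.67 and 0.62, adjusted p = 0.057 and 0.065), and Hes5 without WT day 0 number 2 or 3 or day 6 number 2 (2.32 to 2.83, adjusted p = 0.058 to 0.12). For day 8 against day 6, the calls of Dll1 (log2 2.08 to 2.36, adjusted p = 0.10 to 0.15) and Hes5 (3.54 to 3.66, 0.060 to 0.12) were lost in 5 of 6 such fits, all but that without day 8 number 3. The call of Notch1 was lost in 6 of 6 (1.20 to 1.65, adjusted p = 0.056 to 0.18), and that of Notch2 without WT day 6 number 2 (log2 -0.71, adjusted p = 0.051). Hes1 on day 8 against day 0 lost its call in 4 of 6 (log2 0.53 to 0.59, adjusted p = 0.072 to 0.11), without day 0 number 2 or 3 or day 8 number 1 or 3.

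Per kilobase of exon, Hes5 had the highest mean level of the members in WT on day 8, at 72.3 CPM per kilobase, followed by Dll1 at 40.7 and Notch1 at 37.9. Hes1 stood at 27.9, Dll3 at 20.5, Notch2 at 14.6, Dner at 13.02, Jag1 at 9.12, Jag2 at 8.77 and Dll4 at 2.25 CPM per kilobase. On day 0 the order was led by Hes1 at 18.1, Notch2 at 11.7 and Jag2 at 11.6 CPM per kilobase, with Hes5 at 0.83 and Dll4 at 0.02. Some exon bases of Dll1, Dll4, Dner, Notch1 and Hes5 also belong to an annotated gene on the opposite strand, and some of Notch2 to one on the same strand. Since the strand setting of the counting is not given in the sources used here, reads of those stretches cannot be assigned with certainty.

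In mCaPS aggregates on day 8, the ligands Dll1 and Dll3, Dner, the receptor Notch1 and the target Hes5 were lower than in WT, and the receptor Notch2 was higher. Of the 10 members 6 were called, 5 lower and 1 higher, where 18.5% of all genes were called, 9.06% lower and 9.39% higher. Hes5 was at 7.99, 15.6 and 0.388 CPM in mCaPS, against 88.1, 85.2 and 103 CPM in WT (log2 -3.52 ± 1.01, adjusted p = 0.016). Dll1 was at 10.5, 21.5 and 4.04 CPM in mCaPS, against 152, 163 and 103 CPM in WT (-3.54 ± 0.72, adjusted p = 0.0020). Dll3 was at 3.31, 4.82 and 0.453 CPM in mCaPS, against 34.2, 63.0 and 35.6 CPM in WT (-3.94 ± 0.72, adjusted p = 0.00099). Every mCaPS library of these genes lay below every WT library, and the one numbered 3 was the lowest each time. Dner was at 1.59, 1.01 and 0.0647 CPM in mCaPS, against 63.1, 43.6 and 35.1 CPM in WT (-5.70 ± 1.10, adjusted p = 0.0014). These mCaPS levels of Dner were very low, which limits how well the size of its change is known. Notch1 was at 75.4, 113 and 50.9 CPM in mCaPS, against 441, 313 and 325 CPM in WT (-2.17 ± 0.45, adjusted p = 0.0023). Notch2 was higher, at 322, 275 and 224 CPM in mCaPS, against 126, 180 and 153 CPM in WT (0.83 ± 0.19, adjusted p = 0.0036).

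Hes1, Dll4, Jag1 and Jag2 were not called by edgeR between mCaPS and WT on day 8. Hes1 stood at 45.0, 39.5 and 27.3 CPM in mCaPS, against 39.5, 38.9 and 42.9 CPM in WT (log2 -0.12 ± 0.23), so that the Hes genes differed in their values. Dll4 was at 10.7, 8.30 and 4.85 CPM in mCaPS, against 3.95, 13.9 and 5.48 CPM in WT (0.03 ± 0.60). Jag1 was at 23.7, 28.6 and 21.7 CPM in mCaPS, all below the WT libraries at 55.7, 52.0 and 42.7 CPM, with a log2 fold change of -1.02 ± 0.38 that missed the threshold (adjusted p = 0.058). DESeq2 called Jag1 (adjusted p = 0.038), as did edgeR fitted to these groups alone (adjusted p = 0.017). Leaving out 1 library kept every call but that of Hes5, which was lost without mCaPS number 3 (-2.95, adjusted p = 0.078). Same-numbered day 8 libraries of CaPS and WT deviated together from their group means (r of 0.34 to 0.59). Those of mCaPS and WT did not (-0.03 to 0.17). Whether the lines were handled as separate sets is not given. Line and library set therefore cannot be told apart where mCaPS or KO is compared with WT or CaPS in the neural series, also for changes between days.

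**Figure D2:**
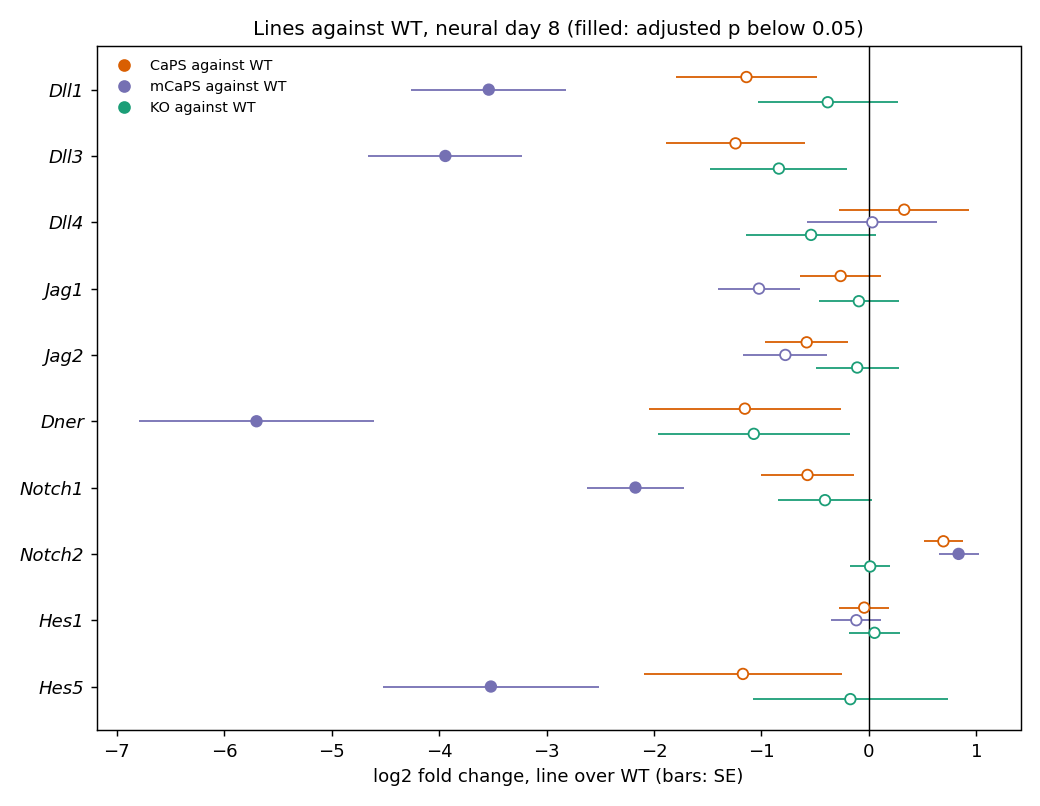
Log2 fold change of each line over WT on neural day 8 (x) for each member (y), with SE bars; filled points have an adjusted p below 0.05. The 6 filled points are all mCaPS: Dll1, Dll3, Dner, Notch1 and Hes5 to the left of 0 and Notch2 to the right.

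CaPS and KO aggregates had no member called against WT on day 8 by edgeR, where 0.0112% and 0.0505% of all genes were called. At an unadjusted p below 0.05 the count was 1 for CaPS (Notch2) and 0 for KO, where 8.79% and 8.53% of all genes passed it. DESeq2 called 1 (Notch2, with 1.27% of all genes) and 0. The libraries of these lines were unlike each other. Hes5 was at 75.1, 8.38 and 39.1 CPM in CaPS and at 87.8, 147 and 9.73 CPM in KO, against 85.2 to 103 CPM in WT. Dll1 was at 129, 14.4 and 46.8 CPM in CaPS and at 154, 149 and 18.2 CPM in KO, against 103 to 163 CPM in WT. In both genes CaPS number 1 and KO numbers 1 and 2 stood near WT, and CaPS number 2 and KO number 3 lay within the range of the mCaPS libraries. Dner likewise was at 53.0, 1.97 and 8.81 CPM in CaPS and at 39.1, 21.7 and 6.67 CPM in KO, against 35.1 to 63.1 CPM in WT. Without CaPS number 1, Notch1 was lower (log2 -1.46, adjusted p = 0.049) and Notch2 higher (0.94, adjusted p = 0.0034) in CaPS than in WT. Log2 fold changes of CaPS over WT were -1.17 ± 0.92 for Hes5, -1.14 ± 0.66 for Dll1 and -1.24 ± 0.64 for Dll3. Those of KO over WT were -0.17 ± 0.91, -0.38 ± 0.65 and -0.84 ± 0.64.

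The proneural and neuron marker sums were low in the same libraries as these genes, and their part in the result was not tested. The summed level of 8 proneural markers on day 8 was 233, 33.5 and 118 CPM in CaPS, 19.3, 45.8 and 2.42 CPM in mCaPS, 270.1, 314 and 30.2 CPM in KO, and 298, 334 and 293 CPM in WT. The summed level of 8 neuron markers was 148 to 1550 CPM in CaPS, 16.3 to 113 CPM in mCaPS, 163 to 927 CPM in KO and 858 to 1775 CPM in WT. The neuron sum did not follow Hes5 in every step between libraries. Relative to WT on the log2 scale, it was -3.31 in mCaPS number 1 and -3.87 in number 2. Hes5 was at -3.50 and -2.54 in the same libraries. That of 8 neural progenitor markers was 2243, 686 and 1089.9 CPM in CaPS, 722, 849 and 735 CPM in mCaPS, 1858, 1876 and 1592 CPM in KO, and 2389.8, 1888 and 1928 CPM in WT. The progenitor sum did not follow Hes5 in every library: KO number 3 and mCaPS number 3, both low for Hes5, stood near the other libraries of their line. In WT this sum was already 843 to 1392 CPM on day 0, so it does not measure neural progenitors alone. Against WT on day 8, 6 of 8 proneural, 7 of 8 neuron and 4 of 8 neural progenitor markers were lower in mCaPS and none was higher. Of all genes tested, 9.06% were called lower and 9.39% higher there. Dll1, Dll3 and Dner are themselves known from nascent neurons. The endothelial sum went the other way, at 166 to 278 CPM in mCaPS, against 17.8 to 46.5 CPM in WT, with 7 of 8 markers called higher. Of heart muscle and of feeder fibroblast markers 3 of 8 each were higher too. The heart muscle sum was 31.7 to 71.9 CPM in mCaPS, against 3.92 to 9.38 CPM in WT, and the fibroblast sum 651 to 2376 CPM in mCaPS, against 62.3 to 216 CPM in WT. Of the presomitic and paraxial mesoderm markers 5 of 8 passed the filter, 1 being higher and 1 lower, with sums of 23.8 to 45.2 CPM in mCaPS, against 7.98 to 19.0 CPM in WT. CaPS numbers 2 and 3 had endothelial sums of 249 and 168 CPM. In bulk RNA, fewer cells of a type and less RNA per cell cannot be told apart.

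**Figure D3:**
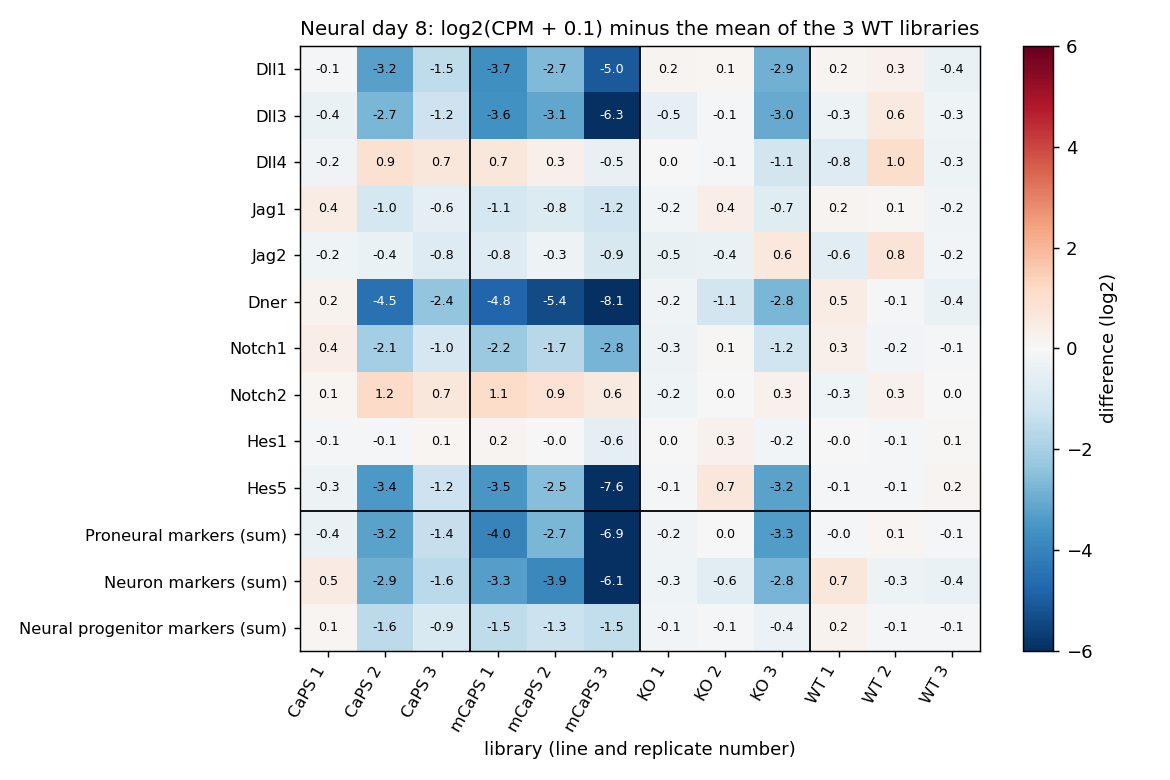
Neural day 8 libraries (columns, by line and number) and members with 3 marker sums (rows); each cell is the difference of log2(CPM + 0.1) from the mean of the 3 WT libraries. Dll1, Dll3, Dner, Notch1 and Hes5 are low in all mCaPS libraries, in CaPS numbers 2 and 3 and in KO number 3, as are the proneural and neuron sums, while Notch2 and Dll4 are not low there except Dll4 in KO number 3 and mCaPS number 3.

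Between the CaPS and the mCaPS line on day 8, Dll3 (6.50-fold, with an SE of 0.68 on the log2 scale, adjusted p = 0.040) and Dner (log2 4.54 ± 1.04, adjusted p = 0.026) were higher in CaPS, 2 of 10 members where 1.59% of all genes were called. Neither call was kept in every fit with 1 library left out. Dll3 lost its call in 5 of 6 leave-one-out fits (log2 2.04 to 3.28, adjusted p = 0.051 to 0.53), and it was kept without CaPS number 2. Dner lost its call without CaPS number 1 or mCaPS number 2 or 3 (log2 2.54 to 4.61, adjusted p = 0.080 to 0.57). Without CaPS number 2, the lowest of its group, Dll1 (2.87, adjusted p = 0.014) and Notch1 (2.01, adjusted p = 0.0071) were called too.

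The difference in the change itself was tested by subtracting the WT change between day 8 and day 0 from that of each line. For mCaPS 4 of 10 members were called, all lower, where 9.49% of all genes were called: Dner (log2 -7.02 ± 1.42, adjusted p = 0.0034), Dll3 (-4.59 ± 0.95, adjusted p = 0.0039), Dll1 (-4.32 ± 0.97, adjusted p = 0.0063) and Notch1 (-2.56 ± 0.62, adjusted p = 0.0100). Each of these 4 calls was kept in all 12 fits that left out 1 library. The size for Dner rests on low levels in mCaPS on day 8 and in WT on day 0. DESeq2 called 5 members, adding Dll4 (-2.94, adjusted p = 0.028), where it called 13.6% of all genes. The WT day 0 counts of Dll4 were very low. Hes5 was not called (-2.38 ± 1.46, adjusted p = 0.33). In mCaPS it rose between the days, being at 7.99, 15.6 and 0.388 CPM on day 8, against 0.409, 0.410 and 0.571 CPM on day 0 (4.12 ± 1.11, adjusted p = 0.0033). Its library numbered 3 on day 8 lay below all day 0 libraries. For CaPS and for KO edgeR called 0 of 10 members, where 0% and 0.337% of all genes were called, and so did DESeq2. At an unadjusted p below 0.05 there were 4 members for CaPS (Dll1, Dll3, Dll4 and Notch2) and 2 for KO (Dll4 and Notch1), where 4.98% and 10.9% of all genes passed that p.

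Within each line, day 8 against day 0 called 8 of 10 members in CaPS (background 48.6%), 6 in mCaPS (46.2%), 6 in KO (43.3%) and 7 in WT. Dll4, Hes1 and Hes5 were higher on day 8 in all of these lines. Dll1 and Dner were higher in CaPS (1.87 ± 0.68 and 3.28 ± 0.98), KO (3.15 ± 0.71 and 2.75 ± 0.95) and WT. In mCaPS Dll1 was at 0.01 ± 0.66, Dner at -1.99 ± 0.96 (adjusted p = 0.088) and Dll3 fell (-1.68 ± 0.66, adjusted p = 0.037). Dll3 was at 0.54 ± 0.64 in CaPS and at 2.50 ± 0.67 in KO. Jag2 fell in CaPS (-1.15 ± 0.39) and mCaPS (-1.68 ± 0.40), and was at -0.83 ± 0.39 in KO and -0.40 ± 0.39 in WT. Notch2 rose in CaPS (0.87 ± 0.19) and mCaPS (0.75 ± 0.18), and was at 0.18 ± 0.18 in KO and 0.32 ± 0.18 in WT. In CaPS the calls of Dll1 (0.74, adjusted p = 0.39), Dner (1.21, adjusted p = 0.28) and Notch1 (0.42, adjusted p = 0.42) ended without CaPS day 8 number 1, and Dll1 also without day 0 number 1 or 3. Jag2 in CaPS lost its call without day 0 number 1 or day 8 number 3 (log2 -0.78 and -1.09, adjusted p = 0.13 and 0.052). Hes1 in CaPS lost it without day 0 number 2 or day 8 number 1 or 3 (0.49 to 0.61, 0.060 to 0.13). Hes1 in KO lost its call without day 0 number 3 or day 8 number 2 (0.50 and 0.53, adjusted p = 0.11 in both), and Dner in KO without day 0 number 2 or 3 or day 8 number 1 (2.02 to 2.61, 0.069 to 0.11). Dll3 in mCaPS lost it without day 0 number 1 or 2 or day 8 number 1 or 3 (-1.86 to -1.24, 0.057 to 0.14). Without KO day 8 number 3, Jag1 (1.01, adjusted p = 0.044) and Notch1 (1.21, adjusted p = 0.035) were called in KO, as was Jag2 (-1.28 and -1.06 without this library or KO day 0 number 3, adjusted p = 0.016 and 0.048).

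**Figure D4:**
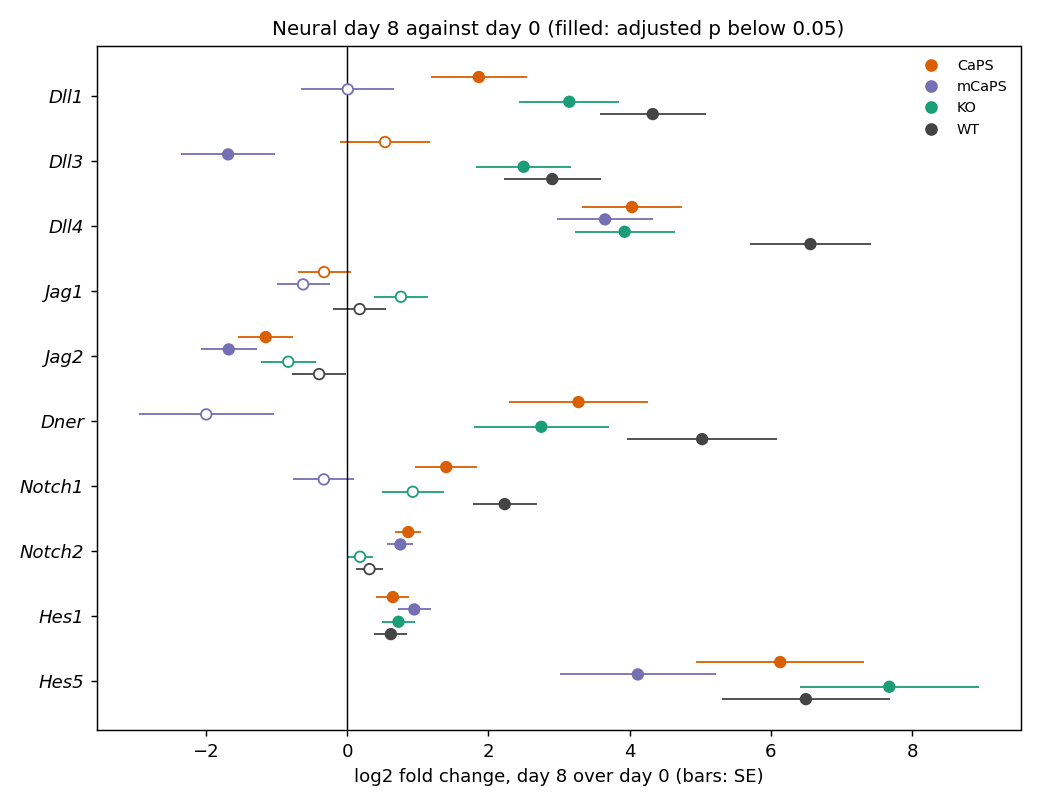
Log2 fold change between neural day 8 and day 0 (x) for each member (y) in 4 lines, with SE bars; filled points have an adjusted p below 0.05. In mCaPS Dll1, Dll3, Dner and Notch1 sit at or left of 0, where WT sits between 2.23 and 5.03, and Hes5 and Dll4 are right of 0 in all 4 lines.

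On neural day 0, edgeR called 1 of 10 members in mCaPS against WT (background 3.02%), and 0 of 10 in CaPS (0% of all genes) and KO (5.52%), with 1 at an unadjusted p below 0.05 in each of those comparisons (Dll4, where 3.59% and 21.1% of all genes passed that p) and 0 by DESeq2. The member called was Dll4, at 0.358, 1.00 and 0.513 CPM in mCaPS, against 0.170, 0.0780 and 0 CPM in WT (log2 2.94 ± 0.84, adjusted p = 0.048), from 14, 49 and 18 counts in mCaPS and 4, 3 and 0 counts in WT. That call was lost without any 1 of the 6 libraries compared (log2 2.39 to 3.77, adjusted p = 0.055 to 0.21). CaPS and WT libraries of the same number deviated together on day 0. With the replicate number as a block, 2 members were called higher in CaPS, where 4.06% of all genes were called. Dll1 was at 15.7, 23.5 and 12.9 CPM in CaPS, against 9.14, 5.70 and 6.05 CPM in WT (log2 1.32, adjusted p = 0.021 with the block and 1 without it). Dll3 was at 11.9, 14.9 and 11.8 CPM in CaPS, against 5.44, 5.72 and 6.56 CPM in WT (1.13, adjusted p = 0.0042 with the block and 1 without it). All CaPS libraries of both genes lay above all WT libraries, as did all mCaPS libraries of Dll1. The share of all genes separated this way was not computed. The feeder fibroblast sum on day 0 ranged over 226 to 3335 CPM in CaPS, 89.2 to 153 CPM in mCaPS, 70.1 to 112 CPM in KO and 298 to 3348 CPM in WT, and its part in day 0 levels was not tested.

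On day 6, edgeR called 0 of 10 members in each line against WT, where 0%, 2.22% and 0.0281% of all genes were called in CaPS, mCaPS and KO. In mCaPS, 6 members had an unadjusted p below 0.05, where 17.9% of all genes did, and DESeq2 called 3 (Dll1, Dll3 and Jag1), where it called 6.48% of all genes. CaPS (Dll4) and KO (Jag1) had 1 each at that unadjusted p, where 6.59% and 4.76% of all genes passed it, and DESeq2 called 0. Dll1 was at 4.38, 15.2 and 2.95 CPM in mCaPS, against 24.9, 34.5 and 29.5 CPM in WT (log2 -1.98 ± 0.68, adjusted p = 0.11). Jag1 was at 8.64, 23.97 and 8.01 CPM in mCaPS, against 45.4, 33.5 and 25.1 CPM in WT (-1.36 ± 0.38, adjusted p = 0.055). Hes5 was at 0.575, 3.42 and 0.458 CPM in mCaPS, against 7.12, 8.40 and 7.38 CPM in WT (-2.36 ± 0.99, adjusted p = 0.19). All mCaPS libraries lay below all WT libraries in these genes, and mCaPS number 2 was the nearest to WT. Without it Dll1 (-3.01, adjusted p = 0.027), Dll3 (-2.96, adjusted p = 0.030) and Jag1 (-2.06, adjusted p = 0.0075) were called. On this day Dll1 and Hes5 also lay wholly below WT in CaPS, as did Jag1 and Hes5 in KO. By line, 4 of 10 members lay wholly below WT in CaPS, 6 in mCaPS and 4 in KO. The share of all genes doing so was not computed, so these counts are not read as particular to the members.

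A further 38 genes of the Notch pathway were all tested. In WT, 24 of them were called higher and 3 lower on neural day 8 than on day 0. Of all genes tested, 27.5% were called higher and 24.9% lower there. The median log2 fold change was 0.82 in the 38 genes, beside 0.05 over all genes tested. Those higher included the target genes Heyl (3.11 ± 0.70), Hey1 (2.66 ± 0.53) and Nrarp (3.94 ± 0.66), a feedback inhibitor. Also higher were the glycosyltransferase Lfng (3.34 ± 0.76), which alters how receptors respond to ligands, the coactivator Maml3 (4.30 ± 0.41), the ubiquitin ligase Dtx4 (5.67 ± 0.87), the sheddase Adam10 (2.30 ± 0.31) and the receptor Notch3 (1.17 ± 0.32). Notch4, known from endothelium, fell (-1.12 ± 0.36). In mCaPS against WT on day 8, 9 of the 38 were called lower and 4 higher. Of all genes tested, 9.06% were called lower and 9.39% higher there. The median was 0.07 in the 38 genes, beside 0 over all genes. Nrarp (-2.99 ± 0.63), Lfng (-2.93 ± 0.75), Mfng (-2.12 ± 0.43), Hes6 (-2.08 ± 0.46) and Dtx4 (-3.02 ± 0.76) were lower, with Hes3, Maml3, Rfng and Dtx1. Hey1 (2.46 ± 0.52), Dlk1 (3.54 ± 0.69), Neurl1b (1.71 ± 0.61) and Dtx2 (0.73 ± 0.22) were higher. Target genes of the pathway did not all move one way: Nrarp and Hes5 were lower and Hey1, a target also known from vessels, was higher in the same libraries.

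In WT embryoid bodies Dll3, Dll4, Jag1 and Notch2 rose and Jag2 fell between day 0 and day 10, while Hes5, Dll1 and Dner did not pass the test. No member was called on day 6 against day 0 by edgeR (background 7.88%), 0 had an unadjusted p below 0.05 (20.3% of all genes did), and DESeq2 called 0. On day 10 against day 0, 5 of 10 were called, 4 higher and 1 lower, where 29.2% of all genes were called. Dll4 was at 2.85, 10.5 and 4.20 CPM on day 10, against 0.119, 0.186 and 0.221 CPM on day 0 (log2 4.97 ± 1.05, adjusted p = 0.00065). Jag1 was at 74.2, 85.5 and 82.0 CPM on day 10, against 31.8, 35.2 and 33.8 CPM on day 0 (1.26 ± 0.27, adjusted p = 0.00086). Notch2 was at 146, 309.8 and 296 CPM on day 10, against 52.0, 101 and 104 CPM on day 0 (1.55 ± 0.34, adjusted p = 0.0012). Within each day the library numbered 1 was the low one for Notch2. Dll3 was at 9.65, 7.37 and 30.4 CPM on day 10, against 5.52, 3.98 and 3.35 CPM on day 0 (1.89 ± 0.64, adjusted p = 0.027). Jag2 was lower, at 11.4, 25.8 and 16.6 CPM on day 10, against 40.5, 32.6 and 34.9 CPM on day 0 (-1.005 ± 0.30, adjusted p = 0.011). Dll3 lost its call without day 10 number 3, the highest library, or day 0 number 2 or 3 (log2 1.00 to 1.86, adjusted p = 0.080 to 0.29). Jag2 lost its call without day 10 number 1 (-0.76, adjusted p = 0.075), while Notch1 was called without that library (1.32, adjusted p = 0.014). Without all the CaPS and WT libraries numbered 1, which stood apart, Jag2 was not called either (-0.69, adjusted p = 0.13). Notch1 was called in that fit (1.08, adjusted p = 0.0057). The summed level of 8 endothelial markers was 309.7 to 457 CPM on day 10, against 46.3 to 99.1 CPM on day 0. That of 8 heart muscle markers was 395 to 2281 CPM on day 10, against 37.9 to 112 CPM on day 0. Of 8 presomitic and paraxial mesoderm markers 5 were higher and 1, Tcf15, lower, while their sums overlapped, at 15.6 to 41.2 CPM on day 10, against 20.5 to 29.8 CPM on day 0, where 3 markers were at 0 in each library. Of 8 feeder fibroblast markers 6 were lower, with sums of 111 to 210.5 CPM on day 10, against 319 to 2952 CPM on day 0. The part of these markers in the members' changes was not tested.

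Hes5 stayed low in WT embryoid bodies, at 0.756, 1.41 and 1.44 CPM on day 10, against 0.297, 0.149 and 0.0883 CPM on day 0 (log2 2.87 ± 1.25, adjusted p = 0.080). Dner was at 0.667, 1.22 and 2.10 CPM on day 10. Dll1 was at 21.1, 14.0 and 34.2 CPM on day 10, against 11.99, 19.8 and 6.73 CPM on day 0. The proneural sum was 1.33 to 2.24 CPM on day 10. WT libraries of the same number deviated together over the days. With the replicate number as a block Hes5 (2.92, adjusted p = 0.012) and Notch1 (0.88, adjusted p = 0.013) were called on day 10 against day 0 as well, and Notch2 on day 6 against day 0 (0.65, adjusted p = 0.044). The block called 37.7% and 12.3% of all genes in these comparisons. On day 10 against day 6, 4 of 10 were called (background 16.2%): Dll4 by 5.60 ± 1.10, Jag1 by 1.54 ± 0.27 and Notch1 by 1.47 ± 0.40 higher, and Jag2 lower (-1.002 ± 0.30). With the block there were 7, Dll1 (0.63, adjusted p = 0.025), Notch2 (0.89, adjusted p = 0.0027) and Hes5 (2.83, adjusted p = 0.015) being added, where 34.4% of all genes were called with the block. Jag2 lost its call without day 6 number 1 or day 10 number 1 or 3 (-0.95 to -0.76, adjusted p = 0.066 to 0.12) and Notch1 without day 6 number 1 or day 10 number 2 (1.26 and 1.21, adjusted p = 0.074 and 0.067). Notch2 was called without day 10 number 1 or day 6 number 2 (1.146 and 1.137, adjusted p = 0.031 and 0.047).

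**Figure D5:**
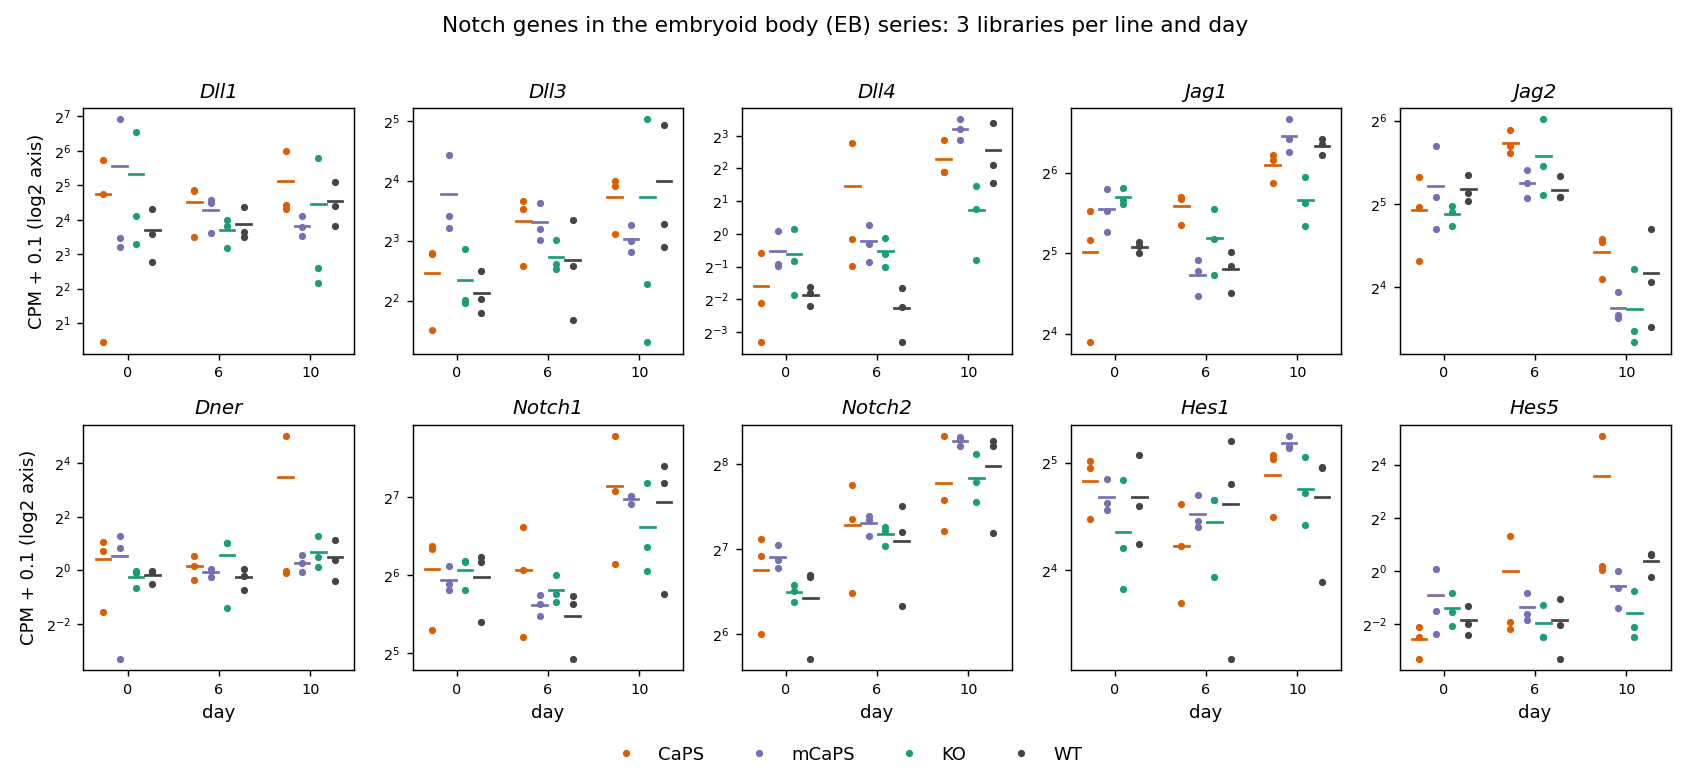
Level of each member in the embryoid body series, as CPM plus 0.1 on a log2 axis (y), by day (x) and line (colour); each point is 1 of 3 libraries and each bar their arithmetic mean. Dll4 and Notch2 are higher on day 10 than on day 0 in each line as a mean, and 1 CaPS library on day 10 is far above the rest for Dner (31.9 CPM) and Hes5 (33.3 CPM).

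In the other lines, day 10 against day 0 called 6 of 10 members in CaPS (background 26.7%), 5 in mCaPS (36.3%) and 2 in KO (25.3%). Notch2 rose in all of them, by 1.03 ± 0.34 in CaPS, 1.37 ± 0.34 in mCaPS and 1.35 ± 0.34 in KO. Dll4 rose in CaPS (4.42 ± 1.01) and mCaPS (4.12 ± 0.99). In KO it was at 2.67, 1.58 and 0.474 CPM on day 10, against 0.171, 0.464 and 1.02 CPM on day 0 (1.53 ± 0.87, adjusted p = 0.21). Jag1 rose in CaPS (1.08 ± 0.27) and mCaPS (0.91 ± 0.27), and in KO it was at 61.7, 49.2 and 40.2 CPM on day 10, against 48.8, 50.2 and 56.1 CPM on day 0 (-0.04 ± 0.27). These are each line's own tests. The line's change minus that of WT passed for 0 of 10 members in CaPS, mCaPS and KO, where 0%, 0% and 0.00562% of all genes were called. Unadjusted p was below 0.05 for 1, 1 and 2 members there, beside 2.46%, 5.24% and 3.55% of all genes, Hes5 in CaPS, Dll3 in mCaPS, and Dll4 and Jag1 in KO, and DESeq2 called 0. Jag2 fell in mCaPS (-1.46 ± 0.30) and KO (-1.15 ± 0.30).

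A single embryoid body library held far more Hes5 and Dner than the others of its group. In CaPS on day 10 Hes5 was at 1.03, 0.917 and 33.3 CPM and Dner at 0.844, 0.876 and 31.9 CPM, the high value being number 3 in both. The same library held 119 CPM of proneural and 884 CPM of neuron markers, against 1.45 to 2.38 and 99.0 to 108 CPM in CaPS numbers 1 and 2. Without this library the change of Hes5 in CaPS between day 10 and day 0 was 3.64 (adjusted p = 0.026) in place of 7.22 ± 1.42. That of Dner was -0.51 (adjusted p = 0.71) in place of 3.19 ± 0.98, and that of Notch1 was 0.61 (adjusted p = 0.31) in place of 1.07 ± 0.39. With the replicate number as a block, CaPS had 6 calls (25.8% of all genes), losing Dner (0.84, adjusted p = 0.77) and adding Dll3 (1.37, adjusted p = 0.019). Hes5 was higher in CaPS than in mCaPS on day 10 (4.34 ± 1.16, adjusted p = 0.033), the 1 member called where 3.18% of all genes were, and without that library it was at 0.75 (adjusted p = 0.83). Leaving out any mCaPS library also ended that call (up to 4.82, adjusted p = 0.093 at the lowest), and without CaPS number 1 or 2 Dner was called as well (3.87 and 3.89, adjusted p = 0.014 and 0.013). DESeq2, which gave Hes5 no adjusted p in this comparison, called Dner (3.35, adjusted p = 0.0049). Among the changes between day 10 and day 0, the call of Notch2 in CaPS was lost without day 0 number 1 or day 10 number 2 (0.76 and 0.65, adjusted p = 0.14 and 0.21). That of Notch1 in CaPS was lost without day 0 number 1 or 2 or day 10 number 2 or 3 (0.61 to 1.22, adjusted p = 0.054 to 0.31), and that of Dner in CaPS without day 0 number 3 (2.68, adjusted p = 0.068). That of Notch1 in mCaPS was lost without any 1 of 6 libraries (0.98 to 1.12, adjusted p = 0.063 to 0.098). Without KO day 10 number 2 or 3, Dll3 was called in KO (1.90 and 1.80, adjusted p = 0.027 and 0.044).

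Against WT, no line had a member called in embryoid bodies on day 0, 6 or 10 by edgeR. The shares of all genes called were 0%, 0% and 0.00562% for CaPS, 0.916%, 0.54% and 0.708% for mCaPS and 0.641%, 0.646% and 0.877% for KO on those days. Across these 9 comparisons 0 to 3 members had an unadjusted p below 0.05, beside 1.43 to 11.4% of all genes. DESeq2 called 1, Dll4 in CaPS on day 6, with 0.455% of all genes. It stood at 0.405, 0.796 and 6.81 CPM in CaPS, against 0.113, 0 and 0.215 CPM in WT. The 3 members under that unadjusted p in KO on day 10 (9.56% of all genes) were Dll4, Jag1 and Hes5. All KO libraries of each lay below all WT libraries, and the share of all genes separated this way was not computed. Hes5 was at 0.499, 0.0772 and 0.129 CPM in KO, against 0.756 to 1.44 CPM in WT (log2 -2.34 ± 1.12, adjusted p = 0.50). The Gapdh levels given above set CaPS and WT libraries of this series apart from those of mCaPS and KO. Line and library set therefore cannot be told apart in embryoid body comparisons of mCaPS or KO with WT, or of CaPS with mCaPS.

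The lines share their WT libraries within a day, so the values of CaPS, mCaPS and KO against WT are not independent of each other. Between the series, the WT change on day 6 against day 0 differed for 1 of 10 members, where 5.97% of all genes were called. Dll4 rose more in the neural series, by 5.84 ± 1.48 on the log2 scale (adjusted p = 0.0083), having been at 1.96, 3.33 and 3.85 CPM in neural aggregates and at 0.113, 0 and 0.215 CPM in embryoid bodies on day 6. This call was kept in all 12 leave-one-out fits. Hes5 (2.52 ± 1.85) and Dll1 (1.92 ± 1.22) did not pass.

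The CaPS-R line was deposited in tables of its own, in which 8 of the 10 members were used, Dll1 and Jag2 not being analysed here. On neural day 8 against day 0, 7 of 8 were called, all higher, where 47.8% of 12763 genes were called. Hes5 was at 50.3, 57.7 and 40.3 CPM on day 8, against 0.266, 0.215 and 0 CPM on day 0 (log2 7.87 ± 0.52, adjusted p = 5.5e-07), on a scale over the genes shared by all 5 lines. Notch1 was at 243, 276 and 234 CPM on day 8, against 63.2, 35.7 and 40.3 CPM on day 0 (2.37 ± 0.24, adjusted p = 1.0e-05). Dner was at 40.3, 23.8 and 14.7 CPM on day 8, against 1.20, 0.430 and 0.264 CPM on day 0 (5.16 ± 0.98, adjusted p = 0.0016), and Dll3 rose by 2.58 ± 0.52. For Hes5 and Notch1 the 3 day 8 libraries of CaPS-R lay closer together than the 3 of CaPS, while Dner ranged from 14.7 to 40.3 CPM. No test was made between CaPS-R and CaPS, and line and deposit cannot be told apart there. Dll4 (4.65 ± 1.08), Notch2 (0.68 ± 0.18) and Hes1 (1.38 ± 0.31) rose too, and Jag1 was at 0.60 ± 0.24 (adjusted p = 0.059, and 0.041 without day 0 number 1). In embryoid bodies 6 members passed the filter on low counts, and Jag1 (1.09 ± 0.24), Notch2 (1.36 ± 0.17) and Hes1 (1.55 ± 0.39) rose between day 0 and day 10, 3 of 6 called where 21.5% of 13057 genes were. Hes1 lost its call without day 10 number 3 (1.16, adjusted p = 0.084).

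The genes most like 3 of the members over the 12 line and day groups of the neural series were named by Pearson correlation of group mean log2 CPM, as a description over groups that share lines and days. For Dll1 they were Adcy5 (r = 0.976), Tagln3 (0.975) and Fsd1l (0.975). For Notch1 they were Tagln3 (0.980), L1cam (0.975) and Rbfox3 (0.974), and for Hes5 Npas3 (0.995), Cdh22 (0.992) and Ntn4 (0.990), out of 12609 genes compared. Over the 12 groups of the embryoid body series, the genes most like Hes5 were Lfng (0.906), Pou3f2 (0.896) and Zfp579 (0.880). Those most like Notch1 were Ebf3 (0.977), Ebf2 (0.974) and Fat4 (0.974), and those most like Dll1 were Myt1 (0.890), Fem1a (0.797) and Rfx4 (0.736), out of 12223.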

How the data were processed

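Read counts per gene were deposited by the authors as tables of whole-number counts, raw and not normalized as far as the values show. Per the submitters' processing notes the build was mm10, and HOMER 4.10.4, featureCounts 1.6.3, STAR 2.7.0, cutadapt 1.14 and a release of edgeR were used. Their roles and the strand setting are not given in the sources used here. Per the labels' protocols, total RNA was depleted of ribosomal RNA and made into directional cDNA. A further 9 columns of a deposited table matched no sample and were not used. Groups were taken from the labels. No pair of libraries of a group held identical counts.

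The counts were modelled with edgeR 4.0.16 under R 4.3.3 (filterByExpr, TMM scaling, robust quasi-likelihood fit), 1 fit of 36 libraries per series, 1 of 9 libraries for each CaPS-R table and 1 of 72 libraries for the contrast between series. The filter left 17818 neural, 17791 embryoid body and 18407 joint genes, over which p-values were adjusted. Levels are CPM after TMM scaling. A standard error is the unshrunk log2 ratio divided by the root of its F. Alternatives were DESeq2 1.42.0, no filter, upper-quartile scaling, no Rn45s, only the groups compared with and without a replicate block, and each library left out. The labels give groups the same replicate numbers. In 12 of 41 comparisons same-numbered libraries deviated together in every pair (r of 0.11 to 0.75), and the block is given beside those results where it changed a call. These were CaPS against WT on each day of both series, the WT day comparisons of the embryoid body series, those of day 10 against day 0 in its CaPS and KO lines, and the CaPS change minus that of WT there. Scripts were tested on simulated data. The 10 members, the 38 pathway genes, the 8 marker lists and the named genes (members, called list genes by size, and the 3 genes most like 3 members) were chosen with earlier results of these data known.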

Additional observations from a re-analysis of the deposited data

Results flagged for a closer look

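In the neural series, the change of mCaPS between day 8 and day 0 differed from that of WT, by a test of the difference itself in edgeR's quasi-likelihood fit, for Dner (log2 -7.02), Dll3 (-4.59), Dll1 (-4.32) and Notch1 (-2.56). In mCaPS the Dner and Dll3 values on day 8 were all below those on day 0, and those of Dll1 and Notch1 overlapped between the days. In WT all 3 libraries on day 8 were higher than any on day 0 for each of these genes. The size for Dner rests on low levels in mCaPS on day 8 and in WT on day 0. Line and library set cannot be told apart in this comparison of mCaPS with WT.

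The change of Dll4 in WT between day 6 and day 0 differed between neural aggregates and embryoid bodies (5.84 on the log2 scale), again by a test of the difference. Dll4 held 4, 3 and 0 counts in neural and 2, 5 and 10 counts in embryoid body libraries on day 0.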

How the results depend on the processing

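Of the 85 member values called across the 41 comparisons, DESeq2 kept 83 of the 83 it could adjust and called 11 more, and it gave no adjusted p for Hes5 in CaPS embryoid bodies on day 10 against day 0 and against mCaPS. Leaving out Rn45s kept 85, upper-quartile scaling 83, no filter 79, fitting only the groups compared 66 (6 gained), the replicate block 68 (17 gained), and leaving out the embryoid body libraries of CaPS and WT numbered 1 kept 22 of 24 (3 gained). The calls lost without those libraries were of Jag2 in WT, on day 10 against day 0 (-0.69, adjusted p = 0.13) and against day 6 (-0.68, adjusted p = 0.2). Of 540 values of called members with 1 library left out, 450 kept the call, 89 lost it and 1 reversed, Dner on day 10 against day 0 in CaPS embryoid bodies without day 10 number 3, where its values with 1 library left out ran from -0.51 to 3.76. Upper-quartile and DESeq2 scaling shifted all genes by less than 0.1 in every comparison of either series.

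Counts of members called that moved by over 1.5 times were as follows, and the cause was not tested beyond the fewer libraries or the other model. Percentages are shares of all genes called under the block, under DESeq2 or in the main fit. None is given for other settings or for fits with 1 library left out. Those counts therefore cannot be told apart from a change in calls over all genes. In the neural series, CaPS on day 8 against day 0 had 3 members with the block (27.3%) in place of 8 (48.6%). It also had 3 when only the groups compared were fitted. CaPS against WT on day 0 had 2 with the block (4.06%) in place of 0. For mCaPS against WT, day 0 had 0 in place of 1 with no filter, with only the groups compared and with the block (2.92%). On day 6 it had 3 with DESeq2 (6.48%), 1 with only the groups compared and 3 with the block (7.91%) in place of 0 (2.22%). CaPS against WT on day 8 had 1 with DESeq2 (1.27%). CaPS against mCaPS on day 8 had 4 with DESeq2 (5.61%), 1 with no filter, and 0 with only the groups compared or with the block (0%), in place of 2 (1.59%). In embryoid bodies, WT on day 6 against day 0 had 1 with the block (12.3%) in place of 0 (7.88%). Day 10 against day 6 had 2 with only the groups compared and 7 with the block (34.4%), in place of 4 (16.2%). CaPS on day 10 against day 0 had 1 with only the groups compared in place of 6 (26.7%). CaPS against WT on day 6 had 1 with DESeq2 (0.455%). CaPS against mCaPS on day 10 had 0 with only the groups compared or the block (0.504%) and 2 without the libraries numbered 1, in place of 1 (3.18%).

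With 1 library left out, the counts ran from 2 to 5 (WT day 6 against day 0), 2 to 5 (day 8 against day 6), 4 to 8 (CaPS day 8 against day 0), 0 to 0 (mCaPS against WT day 0), 0 to 3 (day 6), 0 to 2 (CaPS against WT day 8) and 0 to 4 (CaPS against mCaPS day 8) in the neural series, and from 2 to 5 (WT day 10 against day 6) and 0 to 2 (CaPS against mCaPS day 10) in embryoid bodies. Where the numbers do not pair the libraries, the block moved single calls: of mCaPS against WT on neural day 8, Hes5 (-4.18, adjusted p = 0.070) and Notch2 (0.83, adjusted p = 0.056) were lost and Jag1 (-1.03, adjusted p = 0.022) was gained, and on day 6 Dll1, Notch1 and Hes5 were gained. The block called 13% of all genes on day 8 and 7.91% on day 6 there. Depth limits Hes5 and Dll4 on day 0, which held 0 to 52 counts per library in the neural series.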
